A study of Mus musculus with 39 samples.

Results

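Gfap, Vim, Nes and Synm encode glial fibrillary acidic protein, vimentin, nestin and synemin, the intermediate filament proteins of astrocytes. They were followed here across bulk brain RNA libraries of a mouse model that combines amyloid and tau pathology. The genes were chosen by symbol, and all 4 were found among the 50559 genes of the hippocampal table and of the basolateral amygdala (BLA) table. All 4 also passed the filter on low counts in each tissue and in both tissues together.

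The mice were female and 9 months old, on a C57BL/6 background. APP/Tau mice carried 2 transgenes, mutant human APP (APPSw,Ind, line J9) and human Tau P301S (line PS19), and control mice carried neither. Every mouse, controls included, also carried CaMKIIαCre, which acts in glutamatergic forebrain neurons, and RiboTag+/-, a ribosomal protein that Cre tags. The libraries hold the RiboTag input, the cleared lysate before any tagged ribosome was pulled down, so RNA of all cell types is present and a change can reflect more cells or more RNA per cell, which bulk data cannot tell apart. Naive mice were untrained, and trained mice received a single pairing of a tone with a foot shock 1 h before death. In the hippocampus there were 5 naive and 4 trained APP/Tau libraries and 5 naive and 6 trained control libraries. In the BLA there were 5 naive and 4 trained APP/Tau libraries and 5 naive and 5 trained control libraries. The hippocampus was cut out of frozen sections with a scalpel and its libraries were made from 50 ng of RNA, whereas the BLA was taken with a micropunch and its libraries were made from 10 ng.

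Total counts per library ranged from 92122767 to 128254479 in the hippocampus and from 50301286 to 74293510 in the BLA. Prnp, whose promoter drives the tau transgene of line PS19, was at 1597 to 2231 CPM (counts scaled to the library's total times its TMM factor, computed within each tissue) in the hippocampal APP/Tau libraries against 701 to 966 in controls, and at 1071 to 1684 CPM against 745 to 1052 in the BLA, and the ranges did not overlap in either tissue. App separated the genotypes in the hippocampus (2258 to 2696 against 1683 to 2014 CPM) but not in the BLA (1716 to 2289 against 1695 to 2402 CPM). Mapt, the gene of tau, overlapped in the hippocampus (590 to 665 against 525 to 605 CPM) and the BLA (529 to 725 against 525 to 685 CPM). In the hippocampus, 18S rRNA made up more than 1% of the counts in 2 control libraries (naive replicate 1 and trained replicate 1). In the BLA, APP/Tau trained replicate 3 stood apart. Its 6 fibroblast markers summed to 131.9 CPM, against 14.8 to 33.8 CPM in the BLA controls, and its 6 hippocampal neuron markers to 445.7 CPM, against 111.4 to 157.6 CPM in the BLA controls. Dsp, 1 of these 6 neuron markers, stayed low. It averaged 0.25 ± 0.18 CPM (SD) over the BLA APP/Tau libraries, against 46.4 CPM in hippocampal controls. The 7 markers of striatal and central amygdala neurons summed to between 329.2 and 3457 CPM over the BLA libraries. Some of the results that rest on these libraries are also given without them.

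Intermediate filaments are rope-like polymers of the cytoskeleton. In mature astrocytes they are built mainly of GFAP with vimentin, which can each form filaments of their own, while nestin and synemin enter only as partners of other filament proteins. GFAP and vimentin rise together in reactive astrocytes, the state that astrocytes take up around amyloid plaques and damaged neurons. Vimentin is also made by endothelial and mural cells, microglia and fibroblasts, nestin by neural progenitors and vessels, and GFAP by the radial stem cells of the dentate gyrus.

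The 250 bases upstream of the annotated start are shown for the pair that changed together in the hippocampus and for synemin, which did not pass the test there. They are RefSeq sequences of build GRCm38.p6, on the gene's own strand, at chr11:102897201-102897450 (minus strand) for Gfap, chr2:13574061-13574310 (plus strand) for Vim and chr7:67759743-67759992 (minus strand) for Synm. Capitals mark matches to TATAAA or CCAAT on either strand.
Gfap: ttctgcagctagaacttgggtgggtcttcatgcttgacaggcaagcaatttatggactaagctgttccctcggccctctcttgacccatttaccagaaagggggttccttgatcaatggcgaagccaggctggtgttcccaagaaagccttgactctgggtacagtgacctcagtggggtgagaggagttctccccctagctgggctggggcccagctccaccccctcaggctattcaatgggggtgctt
Vim: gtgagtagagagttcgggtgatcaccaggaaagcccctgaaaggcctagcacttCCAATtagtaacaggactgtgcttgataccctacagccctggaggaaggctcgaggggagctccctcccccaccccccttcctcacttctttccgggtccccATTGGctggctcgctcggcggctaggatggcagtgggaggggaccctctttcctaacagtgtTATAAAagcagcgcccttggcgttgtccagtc
Synm: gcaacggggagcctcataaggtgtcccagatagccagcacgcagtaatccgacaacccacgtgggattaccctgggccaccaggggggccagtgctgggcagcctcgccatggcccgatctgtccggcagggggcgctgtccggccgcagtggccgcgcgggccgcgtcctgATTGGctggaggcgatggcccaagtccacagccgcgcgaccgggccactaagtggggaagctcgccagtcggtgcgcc
The Vim window holds TATAAA at bases -32 to -27 and CCAAT or its reverse complement at -196 to -192 and -94 to -90. The Synm window holds the reverse complement of CCAAT at -78 to -74. The windows of Gfap and Nes hold neither. None of the 4 windows holds TTCNNNGAA, the palindrome bound by STAT factors, or TGANTCA, the AP-1 site. Over 32851 RefSeq promoter windows of 250 bases, TTCNNNGAA was found in 7.02%, TGANTCA in 6.75%, TATAAA in 12.4% and CCAAT in 33.8%. These matches describe letters in a short window, and no binding was measured.

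The 4 genes stood at very different levels in control tissue. Per kilobase of exon, the mean level in hippocampal controls was 96.5 CPM per kb for Gfap, 8.23 for Synm, 6.82 for Vim and 1.18 for Nes (n = 11). Gfap ranged from 74.8 to 118 CPM per kb and Nes from 0.928 to 1.42, and neither touched another gene's range. Synm (7.40 to 9.26) and Vim (5.79 to 8.44) overlapped. In BLA controls the same order held, at 11.9 CPM per kb for Gfap, 4.52 for Synm, 2.72 for Vim and 0.994 for Nes (n = 10). There the range of Gfap (6.74 to 19.9) overlapped that of Synm (3.39 to 7.93), and Synm overlapped Vim (2.13 to 3.65). Levels below are CPM within a gene. They were scaled in each tissue separately, whereas tests between the tissues used 1 fit over both.

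Control BLA held far less Gfap RNA than control hippocampus. Gfap was at 498, 438, 375, 377 and 397 CPM in the 5 naive hippocampal controls and between 316 and 451 CPM (median 401) in the 6 trained ones. In the BLA it was at 83.7, 40.7, 62.0, 35.4 and 28.7 CPM in naive controls and at 32.0, 73.0, 44.9, 28.4 and 72.2 CPM in trained controls. The lowest hippocampal control therefore lay above the highest BLA control. In a fit over both tissues with edgeR's quasi-likelihood test, the log2 difference (BLA minus hippocampus) was -3.00 ± 0.46 (SE), adjusted p = 7.72e-07, with Benjamini-Hochberg adjustment over all genes tested. The control BLA also varied more between mice, with a coefficient of variation of 41.4% against 12.2% in the control hippocampus.

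Vim and Synm were also lower in the BLA. Vim was at 33.4, 40.0, 29.7, 31.6 and 34 CPM in naive hippocampal controls and between 27.4 and 34.7 CPM in trained ones, and at 14.6, 10.1, 14.4, 12.0 and 10.9 CPM in naive and 13.3, 17.3, 13.4, 11.6 and 11.3 CPM in trained BLA controls. These ranges did not overlap, and the log2 difference was -1.31 ± 0.30 (edgeR adjusted p = 0.000353). Synm was between 58.7 and 73.4 CPM in the hippocampal controls. In BLA controls it was at 40.6, 35.2, 33.6, 32.5 and 33.0 CPM (naive) and 27.6, 26.9, 30.9, 35.0 and 62.9 CPM (trained). Only trained replicate 5 of the BLA controls reached the hippocampal range. The log2 difference of Synm was -0.84 ± 0.11 (edgeR adjusted p = 6.04e-08), and -0.99 ± 0.09 without that library. Nes, at 5.96 to 9.14 CPM in hippocampal and 4.83 to 7.94 CPM in BLA controls, overlapped widely and did not pass (log2 difference -0.23 ± 0.11, edgeR adjusted p = 0.0877). With the control libraries alone Nes did pass, with an adjusted p of 0.0447, and with the library number as a block it was at -0.26 ± 0.08 (edgeR adjusted p = 0.0078).

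Thus 3 of the 4 genes were called lower in the BLA, in a comparison where 55.4% of 26725 genes were called, 28.6% lower and 26.8% higher. Complete separation, every BLA control below every hippocampal control, held for Gfap and Vim and for 8.98% of all genes, and the opposite separation for 8.1%. The tissues also differ in dissection, input RNA and depth, and these cannot be told apart from the region. The summed level of 13 other astrocyte markers overlapped between the tissues, at 4679 to 5244 CPM in hippocampal and 4168 to 5299 CPM in BLA controls, and no marker was at 0. Of these 13, 5 were called lower in the BLA (Aqp4, Gja1, Gjb6, Sox9 and Slc4a4) and 3 higher (Aldh1l1, S100b and Ndrg2). The count of higher markers was 1 without the 2 hippocampal libraries rich in 18S rRNA, in naive mice alone or in trained mice alone, and 5 with control libraries alone or with the library number as a block. The count of lower markers was 3 in trained mice alone. The largest of these differences was that of Aqp4, the astrocyte water channel, at a log2 value of -1.09 ± 0.16. Fibroblast and mural markers, whose cells make vimentin, were lower in the BLA for 6 of 6 and 8 of 8 genes, and their part in the Vim difference was not tested. In trained mice alone 2 mural markers were called lower.

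**Figure D1:**
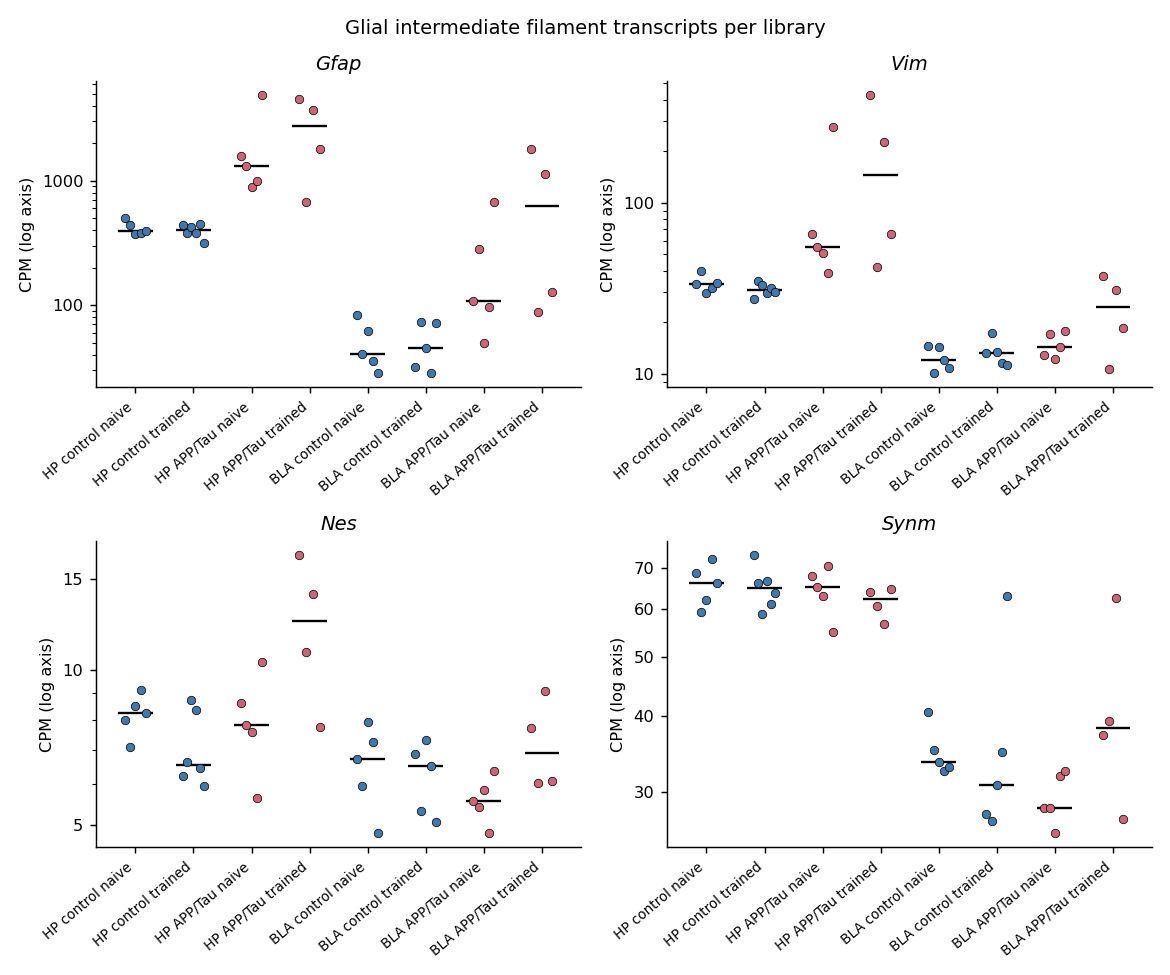
CPM of Gfap, Vim, Nes and Synm in every library (points, log axes) of the 8 groups (HP, hippocampus), with controls in blue, APP/Tau in red and the group median as a line. Hippocampal APP/Tau libraries lay above all controls for Gfap, from 672 to 4886 CPM, while Synm lay between 54.9 and 73.4 CPM in every hippocampal library.

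In the hippocampus of APP/Tau mice Gfap and Vim rose several fold, Nes rose slightly and Synm did not pass the test. Gfap was at 1592, 1308, 895, 985 and 4886 CPM in naive APP/Tau mice and at 4550, 672, 3718 and 1797 CPM in trained ones. The lowest of these 9 values exceeded the highest of the 11 controls, 498 CPM. The log2 fold change was 2.48 ± 0.31 (5.59-fold, edgeR adjusted p = 9.97e-05).

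Vim was at 66.0, 55.1, 50.9, 38.7 and 279 CPM in naive and 427, 41.9, 226 and 65.5 CPM in trained APP/Tau mice. The lowest, 38.7 CPM, was just under the highest control, 40.0 CPM, so the groups met at the edge. The log2 fold change of Vim was 2.07 ± 0.37 (4.21-fold, edgeR adjusted p = 0.00177). Both rises kept their calls when any 1 library was left out, with adjusted p of at most 0.000485 for Gfap and 0.00704 for Vim.

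Nes was at 8.61, 7.82, 7.57, 5.66 and 10.4 CPM in naive and 16.7, 10.8, 14 and 7.75 CPM in trained APP/Tau mice. Controls lay between 5.96 and 9.14 CPM. Among the naive APP/Tau mice only the value of 10.4 CPM lay above that range, and 3 of the 4 trained values did. The averaged log2 fold change was 0.39 ± 0.12, just past the threshold (edgeR adjusted p = 0.0486). It was -0.03 ± 0.14 in a fit of naive mice alone and 0.82 ± 0.19 in a fit of trained mice alone, where the adjusted p was 0.0492. The call of Nes was lost in 15 of the 20 fits that left out 1 library.

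Synm showed no such change. It ranged from 54.9 to 70.4 CPM in APP/Tau and from 58.7 to 73.4 CPM in control mice, and its log2 fold change was -0.05 ± 0.05 (edgeR adjusted p = 0.547). The 95% interval, from the standard error, ran from -0.15 to 0.05. Of the 4 genes, 3 were thus called higher, in a comparison where 11.1% of 25791 genes were called, 7.27% higher and 3.8% lower. Complete separation upwards held for Gfap and for 0.395% of all genes tested, and downwards for 0.0698%.

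In the BLA, Gfap rose and the other 3 genes did not pass the test. Gfap was at 108, 284, 49.7, 95.9 and 670 CPM in naive APP/Tau mice and at 1808, 88.7, 1126 and 128 CPM in trained ones. Of these 9 libraries, 8 lay above the highest control, 83.7 CPM, and naive replicate 3 lay within the control range. The 3 highest exceeded every hippocampal control. The log2 fold change was 3.12 ± 0.54 (8.72-fold, edgeR adjusted p = 0.0128). Without trained replicate 3, the library with high sums of fibroblast and hippocampal neuron markers, it was 3.01 ± 0.56 (adjusted p = 0.0314). It missed the threshold with limma-voom (2.42 ± 0.55, adjusted p = 0.0595) and with the striatal marker score as a covariate (2.98 ± 0.64, adjusted p = 0.0979).

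Vim in the BLA was at 12.8, 17.2, 12.2, 14.4 and 17.9 CPM in naive and 37.3, 10.7, 30.9 and 18.4 CPM in trained APP/Tau mice. Trained replicates 1 and 3 lay well above the highest control, 17.3 CPM, and 2 other libraries lay just above it. The log2 fold change was 0.56 ± 0.17 (edgeR adjusted p = 0.0899). It passed with DESeq2 (adjusted p = 0.0257), without APP/Tau trained replicate 2, the lowest library of its group (0.69 ± 0.13, adjusted p = 0.00423), and without control trained replicate 2, the highest control (0.62 ± 0.17, adjusted p = 0.043). Only these 2 of the 19 fits that left out 1 library passed. Over the 19 fits the value ranged from 0.42 to 0.69, with an edgeR adjusted p of up to 0.256.

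Nes was between 4.84 and 9.11 CPM in the BLA of APP/Tau mice and between 4.83 and 7.94 CPM in controls, and its log2 fold change had an interval of -0.21 to 0.21 (edgeR adjusted p = 0.998). Synm was at 28.2, 28.3, 25.7, 31.9 and 32.6 CPM in naive and 37.2, 39.3, 62.5 and 27.1 CPM in trained APP/Tau mice. The highest, trained replicate 3, was the library with fibroblast markers. The log2 fold change of Synm was -0.04 ± 0.15 (edgeR adjusted p = 0.924), and -0.17 ± 0.14 without that library. So 1 of the 4 genes was called, in a comparison where 1.18% of 23168 genes were called, 0.997% higher and 0.181% lower. Complete separation upwards held for 0.0388% of genes and downwards for 0.0259%, and for none of the 4 genes.

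The genotype effects were set against each other directly. The effect in the BLA minus that in the hippocampus was 0.62 ± 0.62 on the log2 scale for Gfap (edgeR adjusted p = 0.853), with an interval of -0.59 to 1.83. For Vim it was -1.53 ± 0.43 (unadjusted p = 0.0012, adjusted p = 0.269), and for Nes -0.40 ± 0.17 (adjusted p = 0.51). None of the 4 genes was called, in a comparison where 0.0262% of genes were, 0.00748% higher and 0.0187% lower. A difference between the tissues in the response of Vim, which was called in the hippocampus and not in the BLA, was therefore not shown.

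**Figure D2:**
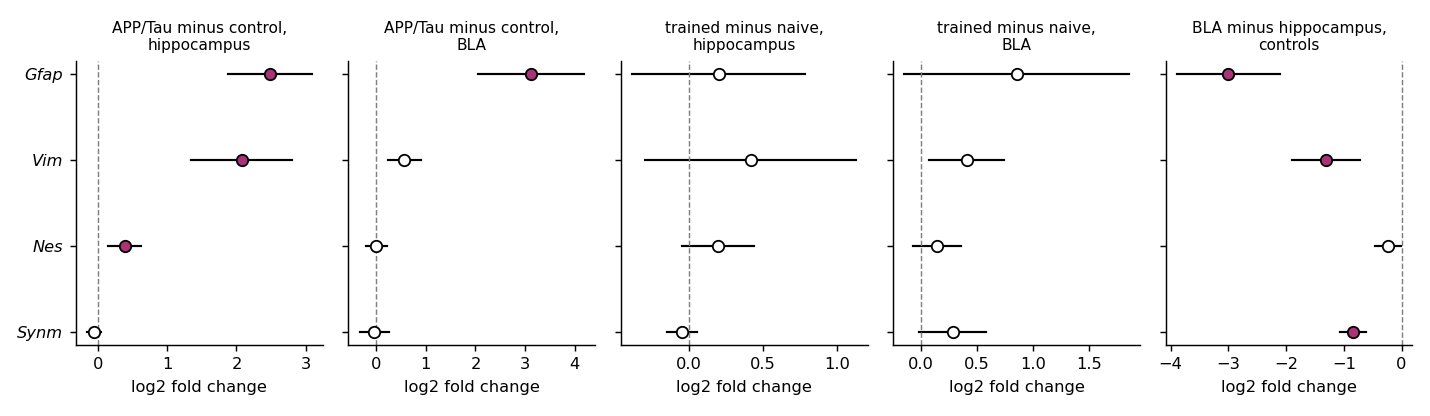
Log2 fold changes of the 4 genes (points) with 95% intervals (lines) for genotype, training and region. Filled points passed an adjusted p of 0.05. Gfap and Vim stand at 2.48 and 2.07 in the hippocampus, while in the BLA only Gfap, at 3.12, is filled.

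Training changed none of the 4 genes past the threshold. The log2 difference between trained and naive mice, averaged over genotypes, was 0.20 ± 0.30 for Gfap, 0.42 ± 0.36 for Vim, 0.20 ± 0.12 for Nes and -0.04 ± 0.05 for Synm in the hippocampus. In the BLA it was 0.85 ± 0.51 for Gfap, 0.41 ± 0.17 for Vim, 0.15 ± 0.11 for Nes and 0.28 ± 0.15 for Synm. The intervals for Gfap, -0.38 to 0.78 in the hippocampus and -0.15 to 1.86 in the BLA, leave room for changes of either sign. No gene at all was called by edgeR for training in either tissue (percent called 0), with 795 hippocampal and 873 BLA genes at an unadjusted p under 0.05. DESeq2 called 3 and 4 genes, and limma-voom 0 in both.

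The interaction, the genotype effect in trained minus that in naive mice, was largest relative to its error for Nes in the hippocampus (0.83 ± 0.25, unadjusted p = 0.00303, edgeR adjusted p = 0.984). For Gfap it was 0.53 ± 0.59 in the hippocampus and 1.70 ± 1.02 in the BLA, and for Vim 1.06 ± 0.73 and 0.59 ± 0.34. None of the 4 was called, and the percent called was 0 over all genes in both tissues, with 1005 hippocampal and 894 BLA genes at an unadjusted p under 0.05. DESeq2 called 3 and 0 genes, and limma-voom 0 in both.

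APP/Tau mice differed from each other in Gfap far more than controls did. In the hippocampus the highest Gfap level was 7.27 times the lowest in APP/Tau mice and 1.58 times in controls, and for Vim the ratios were 11 and 1.46. In the BLA they were 36.4 and 2.95 for Gfap and 3.49 and 1.71 for Vim. For Synm in the hippocampus they were 1.28 and 1.25. Spread was tested on absolute deviations of log2 CPM from the own group's mean, with limma over all genes. The mean deviation of hippocampal Vim was 1.18 in APP/Tau and 0.11 in control mice, a difference of 1.06 ± 0.20 (limma adjusted p = 0.0259). For hippocampal Gfap it was 0.93 against 0.16, a difference of 0.77 ± 0.20 that missed the threshold (limma adjusted p = 0.0553). For BLA Gfap it was 1.74 against 0.57, a difference of 1.16 ± 0.21 (limma adjusted p = 0.0451).

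These calls were close to the threshold. A difference in spread was called for 1.92% of hippocampal genes, 1.84% wider in APP/Tau mice, and for 0.0863% of BLA genes, 0.0777% wider. For each gene alone, the deviations were also permuted exactly between genotypes within training groups, 2-sided. This permutation gave p = 5.67e-05 for hippocampal Vim, 0.000718 for hippocampal Gfap and 0.000252 for BLA Gfap. It gave 0.0422 for hippocampal Nes, 0.0276 for BLA Vim, 0.936 for hippocampal Synm and 0.961 for BLA Synm. The deviations were taken from the group means before the permutation. Those of a group therefore depend on each other, and these p are approximate. With deviations from the group median no spread call among the 4 genes remained, with adjusted p of 0.352 for hippocampal Vim and 1 for BLA Gfap. With the replicate number of the titles as a block, the difference was 0.38 for hippocampal Vim (limma adjusted p = 0.615) and 0.90 for BLA Gfap (0.346), so both calls ended, and 0.39 for hippocampal Gfap (0.607). That block was shared by both genotypes and removed before the deviations were taken. It can take up part of the APP/Tau deviations, and title numbers did not pair libraries, so this setting cannot decide whether spread differed. The hippocampal Vim call also ended without APP/Tau trained replicate 1 (adjusted p = 0.18), replicate 2 (0.0936) or replicate 4 (0.0513), without control naive replicate 5 (0.0546), and without the 2 libraries rich in 18S rRNA (0.0583). The hippocampal Gfap difference passed when any of APP/Tau naive replicates 1 to 4 was left out (adjusted p of 0.0245 to 0.0304). The BLA Gfap call ended in 14 of the 19 fits that left out 1 library.

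High Gfap went with high Vim between APP/Tau mice. In the hippocampus Vim fell into separate clusters, 3 libraries between 226 and 427 CPM and 6 between 38.7 and 66.0 CPM, so no pooled correlation is given. The 3 libraries with high Vim were the 3 highest for Gfap, at 4886, 4550 and 3718 CPM. Among the other 6, Pearson's r of log2 CPM was 0.854 and Spearman's rho 0.771 (exact permutation p = 0.0403 and 0.103, adjusted over 6 relations within clusters 0.242 and 0.617), which did not pass.

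Over the 9 BLA libraries r was 0.911 and rho 0.917 (exact permutation p = 0.000493 and 0.00131, adjusted over 20 relations 0.00493 and 0.0131), and r was 0.900 with the means of the training groups removed. The 2 libraries highest for Gfap were also the 2 highest for Vim. Without the 2 libraries farthest from the Gfap median, r was 0.713 over the remaining 7 (exact permutation p adjusted 0.201).

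In controls r between Gfap and Vim was 0.268 in the hippocampus (n = 11) and 0.586 in the BLA (n = 10), with permutation p adjusted to 0.531 and 0.166. Nes followed Gfap more loosely in APP/Tau mice. Its r with Gfap was 0.663 in the hippocampus (rho 0.5, exact permutation p of r 0.0524, adjusted 0.15) and 0.766 in the BLA (rho 0.65, exact permutation p of r 0.0135, adjusted 0.0449). The latter fell to 0.316 without the 2 libraries farthest from the median, so it rested on them. Synm did not follow Gfap in a way that passed the test in the hippocampus (r -0.533, exact permutation p adjusted 0.258). In the BLA trained replicate 3 stood apart for Synm, and over the other 8 APP/Tau libraries r was 0.463 and rho 0.333 (exact permutation p adjusted 0.68 and 0.746).

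**Figure D3:**
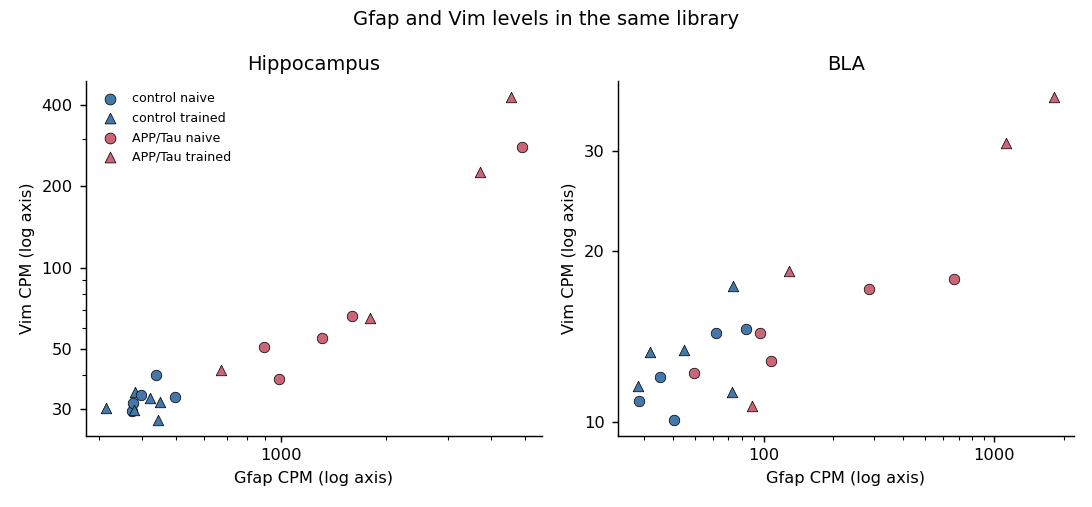
Vim against Gfap in each library (CPM, log axes) of the hippocampus (left) and the BLA (right), with colour for genotype and shape for training. APP/Tau libraries reach from near the controls to 4886 CPM of Gfap in the hippocampus, where 3 libraries lie apart from the other 6 in Vim, and to 1808 CPM in the BLA.

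The sample descriptions give each library a number, and 19 numbers occur in both tissues with the same genotype and training. The labels do not say that a number stands for a mouse. In APP/Tau libraries, the level of Gfap in the hippocampus and that in the BLA library of the same number were correlated, with r 0.897 and rho 0.883 (n = 9, exact permutation p = 0.00234 and 0.00307, adjusted 0.0117 and 0.0205). The 3 numbers with the highest Gfap in the hippocampus (4886, 4550 and 3718 CPM) were the 3 highest in the BLA (670, 1808 and 1126 CPM). The last of these is BLA trained replicate 3, which stood apart in its markers, and r without it alone was not computed. Without the 2 libraries farthest from the median, r was 0.835 (exact permutation p = 0.0252, adjusted 0.159). For Nes, r was 0.885 and rho 0.767 (exact permutation p = 0.00163 and 0.0214, adjusted 0.0108 and 0.102), and r was 0.818 without 2 libraries (adjusted 0.159). With 7 libraries left, neither adjusted p passed.

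For Synm, over the 8 numbers other than that of BLA trained replicate 3, r was -0.295 and rho -0.333 (exact permutation p adjusted 0.68 and 0.746). For Vim, with its separate clusters in the hippocampus, r over the 6 numbers of the lower cluster was 0.465 and rho 0.371 (exact permutation p adjusted 0.68 and 0.746). In the 3 numbers with high hippocampal Vim, BLA Vim was 17.9, 37.3 and 30.9 CPM. In controls none of the 4 genes passed (r of Gfap 0.379, n = 10, permutation p adjusted 0.396).

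**Figure D4:**
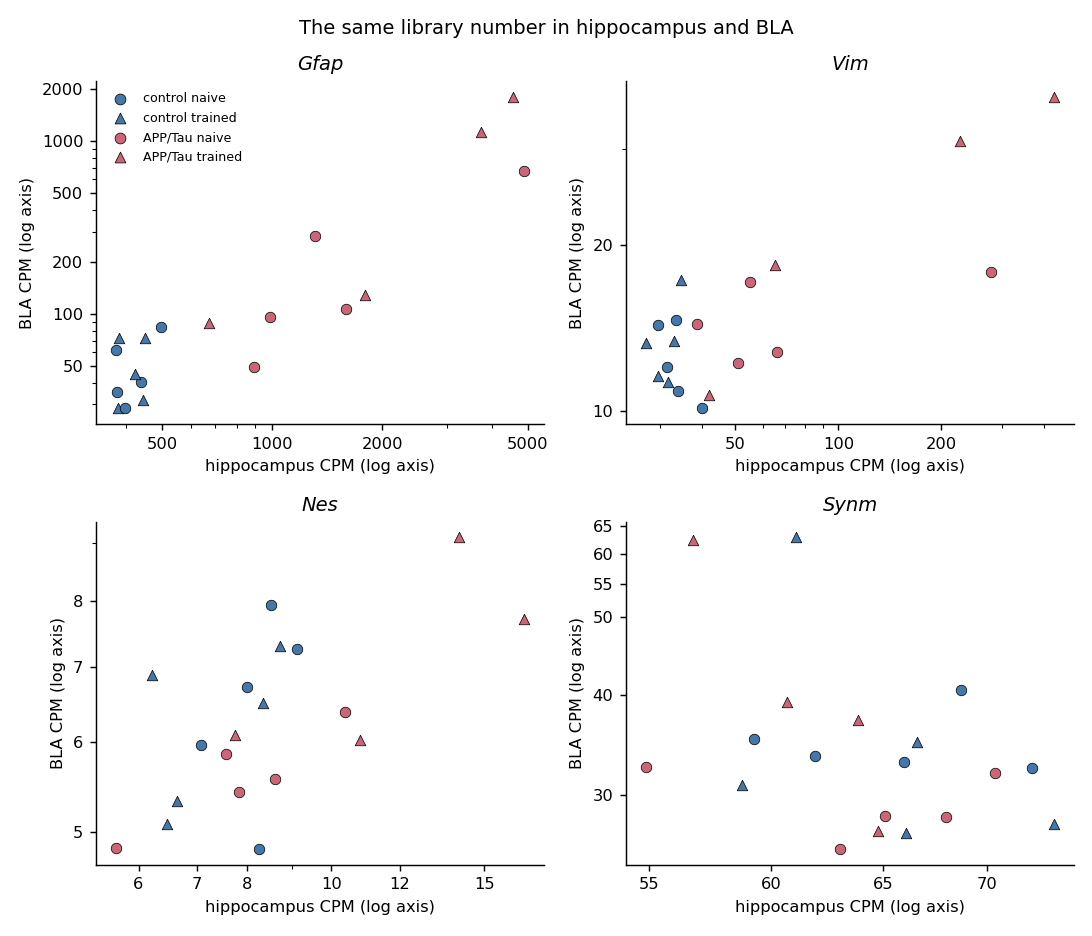
Level of each gene in the BLA against that in the hippocampal library of the same number (CPM, log axes), with colour for genotype and shape for training. For Gfap the 3 APP/Tau numbers highest in the hippocampus, from 3718 to 4886 CPM, are also highest in the BLA, from 670 to 1808 CPM.

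Cell type markers moved with the same genotype. Over all genes tested, 7.27% were called higher and 3.8% lower in the hippocampus, and 0.997% and 0.181% in the BLA. Of 13 astrocyte markers other than Gfap, 7 were called higher in the hippocampus of APP/Tau mice and none lower, with Aqp4 (0.81 ± 0.18), S100b (0.58 ± 0.12) and Sox9 (0.49 ± 0.14) at the top of the log2 fold changes. Without the 2 control libraries rich in 18S rRNA, 2 of the 13 were called, as without APP/Tau trained replicate 1 or 3, and 3 without APP/Tau naive replicate 5. The 3 last-named libraries held the highest Gfap. Their summed level was 4648 to 6649 CPM in APP/Tau mice against 4679 to 5244 CPM in controls, so it overlapped while Gfap did not. Of 8 microglial markers, 7 were called higher, and their sum was 385 to 1310 CPM against 319 to 382 CPM. In naive mice alone no astrocyte or microglial marker was called in the hippocampus, and in trained mice alone 1 astrocyte marker was. In the BLA, 1 of 13 astrocyte and 4 of 8 microglial markers were called higher, with sums of 4465 to 6635 CPM against 4168 to 5299 CPM and of 349 to 777 CPM against 304 to 383 CPM. Without APP/Tau trained replicate 1 or 3 no astrocyte marker was called in the BLA, and 1 or 2 microglial markers were. In naive or trained mice alone no marker of these lists was called in the BLA. No marker of either list was at 0 in any library. Of 8 mural markers, 1 was called higher in the hippocampus and none in the BLA, and of 6 fibroblast markers none in either tissue. All 8 and all 6 had positive log2 fold changes in both tissues. The medians were 0.30 (mural) and 0.32 (fibroblast) in the hippocampus and 0.32 and 0.62 in the BLA. The BLA values include APP/Tau trained replicate 3, which stood apart in its fibroblast sum. Leaving out 1 library gave 0 to 4 mural calls in the hippocampus. In the hippocampus 3 of 8 endothelial markers, 3 of 5 markers of ependyma and 3 of 9 of dividing and progenitor cells were called higher, and in the BLA none. Their summed levels in the hippocampus were 178 to 240 CPM in APP/Tau against 164 to 207 CPM in control mice for endothelium, 14.4 to 48.6 against 10.1 to 25.1 CPM for ependyma, and 118 to 208 against 99.8 to 119 CPM for dividing and progenitor cells. Without the 2 control libraries rich in 18S rRNA, 1 endothelial and 1 ependymal marker were called. In naive mice alone no endothelial, mural, ependymal or progenitor marker was called in the hippocampus. The part of these cells in the rise of Gfap and Vim was not tested.

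The genes whose levels were most like each member's were ranked by the lower of its Pearson r over the 20 hippocampal and over the 19 BLA libraries, among 13832 genes with a mean of at least 1 CPM. For Gfap they were C4b (0.958), Csf3r (0.954), C1qa (0.953) and Cyba (0.951). Vim ranked 74th of that list, at 0.884. For Vim they were Anxa5 (0.957), Ctsh (0.948), Fxyd1 (0.943) and Cnn3 (0.939), with Gfap 40th. For Nes and Synm the likeness was lower. Arhgef5 (0.663), Frrs1 (0.644), Ppp1r3c (0.640) and Tmprss7 (0.634) led for Nes, and Chl1 (0.702), Slc8a1 (0.656), Grin2b (0.638) and Tenm4 (0.635) for Synm. The libraries of a tissue share genotype and dissection, so these values describe the libraries and carry no test.

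Other intermediate filament genes were counted for comparison. The counts in this and the following lists stand beside the shares over all genes. For genotype, 7.27% were called higher and 3.8% lower in the hippocampus, and 0.997% and 0.181% in the BLA. For region, 28.6% were called lower and 26.8% higher in control BLA. In naive mice alone 21 hippocampal genes were called for genotype, and none of them was in this or the following lists. Of 9 neuronal and muscle filament genes, 2 were called higher in the hippocampus of APP/Tau mice, Des, the muscle filament desmin (0.55 ± 0.16, edgeR adjusted p = 0.0309), and Bfsp2, a lens filament protein (1.09 ± 0.28, adjusted p = 0.0192). Sync, which encodes syncoilin, did not pass (0.28 ± 0.10, adjusted p = 0.0637). Neither call remained without APP/Tau trained replicate 1 or 3, and 1 did without APP/Tau naive replicate 5. In the BLA, 2 were called higher and 2 lower. Des was higher there too (0.83 ± 0.18, edgeR adjusted p = 0.0308), as was Bfsp2. The 2 lower genes were Nefl and Nefm, the light and medium neurofilament subunits of axons. Nefm was at 187 ± 23.1 CPM (SD, n = 9) in APP/Tau and 269 ± 45.6 CPM (n = 10) in control BLA, and its log2 fold change was -0.52 ± 0.10 (edgeR adjusted p = 0.0159). In the hippocampus that of Nefm was -0.14 ± 0.07 and did not pass. Without APP/Tau trained replicate 1 or 3, or control trained replicate 5, none of the 9 was called higher and 0 or 1 lower in the BLA. The BLA calls of Des, Cryab, Il6ra and Tgfbr1 each ended in 6 to 16 of the 19 fits that left out 1 library. Each of these calls also ended with limma-voom, with the striatal marker score as a covariate, with the replicate number as a block, and in naive or trained mice alone. That of Nefm ended in 1 of the 19, and also with the striatal marker score as a covariate (-0.40 ± 0.09, adjusted p = 0.0958), with the replicate number as a block (0.0511), in naive mice alone (0.0748) and in trained mice alone (0.481). In the same comparison all 3 markers of basolateral amygdala neurons had negative and all 7 of striatal and central amygdala neurons positive log2 fold changes, with medians of -0.58 and 0.66, and none was called.

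Of the 3 lamin genes, whose products line the nucleus, Lmna was called higher in the hippocampus (0.29 ± 0.05, edgeR adjusted p = 0.002), while Lmnb1 (0.14 ± 0.07) and Lmnb2 (-0.07 ± 0.04) were not, and none was called in the BLA. Of 6 simple keratin genes, which form the filaments of epithelia, 4 were tested in the hippocampus and none was called. Krt8 (0.96 ± 0.36) and Krt18 (0.77 ± 0.36) stood at about 1 CPM. In the BLA only Krt20 of these was tested, and it was not called. Krt8, Krt18 and Krt80 did not pass the filter in the BLA, so the difference between the regions is given for them as levels only, Krt18 at 0.0679 CPM in BLA against 1.32 CPM in hippocampal controls. Dsp, which encodes desmoplakin, was called lower in control BLA, at 0.35 ± 0.21 CPM (SD, n = 10) against 46.4 ± 9.38 CPM in hippocampal controls (n = 11). It is also 1 of the 6 listed hippocampal neuron markers, and all 6 were called lower in control BLA.

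Linkers tie filaments to membranes and to other parts of the cytoskeleton, and synemin is known to bind several of them. Of 13 such genes, 1 was called higher in the hippocampus of APP/Tau mice, Tln1, which encodes talin (0.51 ± 0.12, edgeR adjusted p = 0.0111). That count is near the share of all genes called higher there, 7.27%. The other linkers included Dsp (-0.61 ± 0.23, adjusted p = 0.0936) and Utrn, which encodes utrophin (0.22 ± 0.08, adjusted p = 0.0821). Dsp is also a listed marker of hippocampal neurons, and all 6 of those markers had negative log2 fold changes in the APP/Tau hippocampus, 1 of them called. None was called in the BLA, where Plec, the cytolinker plectin, was at -0.30 ± 0.12 (edgeR adjusted p = 0.172). Between the regions, 7 of the 13 were lower in control BLA and 3 higher, beside 28.6% and 26.8% of all genes. In trained mice alone 4 were called lower, and in naive or trained mice alone 1 was called higher. Dmd, which encodes dystrophin, was lower with Synm (-0.52 ± 0.06, edgeR adjusted p = 1.29e-08).

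Small heat shock proteins bind GFAP filaments and accumulate with them in Rosenthal fibres. Of 6 genes for these proteins and their co-chaperone, 4 were called higher in the hippocampus, Hspb6 (1.02 ± 0.21, edgeR adjusted p = 0.0049), Hspb2 (0.84 ± 0.26, adjusted p = 0.0439), Cryab, which encodes αB-crystallin (0.63 ± 0.20, adjusted p = 0.0463), and Bag3. The call of Hspb6 held in every fit that left out 1 library, while those of Hspb2 and Cryab ended in 12 and 13 of 20. In the hippocampus 1 of the 6 was called without the 2 control libraries rich in 18S rRNA, without APP/Tau trained replicate 1 or 3, or without APP/Tau naive replicate 5. In naive or trained mice alone none was called there. Cryab was also called in the BLA (0.67 ± 0.16, edgeR adjusted p = 0.0438), but not without APP/Tau trained replicate 1 or 3 or control trained replicate 5. In control BLA 4 of the 6 were lower than in hippocampus, among them Cryab (-0.85 ± 0.19) and Bag3 (-0.92 ± 0.12). In trained mice alone 2 were called lower. Oligodendrocytes also make Cryab. Of 6 oligodendrocyte markers, 4 were called higher in the APP/Tau hippocampus, 2 with limma-voom and none in naive or trained mice alone. In the APP/Tau BLA all 6 had positive log2 fold changes, with a median of 0.59, and 1 was called. In control BLA all 6 were called lower than in hippocampus, with a median of -0.97. The part of oligodendrocytes in these differences of Cryab was not tested.

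Filament assembly is controlled by phosphorylation, citrullination and cleavage. Of 13 genes tested for kinases, proteases and turnover, 3 were called higher in the hippocampus. They were Padi2, which encodes the brain's main citrullinating enzyme (0.80 ± 0.19, edgeR adjusted p = 0.0133), Cdk1, a mitotic kinase of vimentin at 0.193 CPM in controls and 0.533 CPM in APP/Tau mice (1.5 ± 0.40, adjusted p = 0.0225), and Capn2, the protease calpain 2 (0.25 ± 0.08, adjusted p = 0.0412). Without APP/Tau trained replicate 1 or naive replicate 5, 1 was called. None was called in the BLA, where Padi2 was at 0.66 ± 0.17 (edgeR adjusted p = 0.0596).

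The 28 genes upstream of Gfap hold ligands, receptors and signal carriers of the interleukin 6 family, TGFβ and Notch pathways and nuclear factor I genes. In the hippocampus of APP/Tau mice 13 were called higher and 3 lower, or 11 and 3 without the 2 control libraries rich in 18S rRNA. In naive mice alone none of the 28 was called, and in trained mice alone none was called lower. In naive mice Osmr was at 1.71 ± 0.44 and Socs3 at 1.25 ± 0.31, with edgeR adjusted p of 0.117 and 0.112. Among ligands, Cntf (2.09 ± 0.40), Clcf1 (1.51 ± 0.29), Lif (0.89 ± 0.21), Ctf1 (0.53 ± 0.15) and Tgfb1 (0.96 ± 0.18) rose. Among receptors, Osmr, the oncostatin M receptor, rose from 5.13 ± 0.68 CPM in controls (SD, n = 11) to 21.9 ± 16.4 CPM (n = 9), a log2 fold change of 2.09 ± 0.30 (edgeR adjusted p = 0.000484). Il6st, Il6ra, Tgfbr1 and Tgfbr2 also rose. Of the signal carriers, Stat3 rose by 0.53 ± 0.11 and Socs3, its feedback inhibitor, by 1.86 ± 0.28 (edgeR adjusted p = 0.000576). Sox9, an astrocyte transcription factor, rose by 0.49 ± 0.14. The 3 lower genes were Nfib (-0.25 ± 0.07), Smad3 (-0.34 ± 0.09) and Hes5, a Notch target (-0.63 ± 0.15).

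In the BLA 2 of the 28 were called higher, Tgfbr1 (0.45 ± 0.09, edgeR adjusted p = 0.0259) and Il6ra (0.61 ± 0.14, adjusted p = 0.0383), and neither call remained without APP/Tau trained replicate 3 or replicate 1, while 1 did without control trained replicate 5. Both calls also ended with limma-voom (adjusted p = 0.0538 and 0.0628) and with the striatal marker score as a covariate (edgeR adjusted p = 0.167 and 0.139). Between the regions, 14 were lower and 4 higher in control BLA, beside 28.6% and 26.8% of all genes. In trained mice alone 9 were called lower, and in naive mice alone 1 was called higher. The nuclear factor I genes, whose products act on astrocyte genes including Gfap, were among the lower ones. Nfix was at 105 ± 14.9 CPM in BLA (SD, n = 10) and 339 ± 13.9 CPM in hippocampal controls (n = 11), with a log2 difference of -1.66 ± 0.11 (edgeR adjusted p = 4.92e-15), Nfib at -1.63 ± 0.12 and Nfia at -1.09 ± 0.07. Neurons make these factors as well, and the cells behind the difference were not measured.

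**Figure D5:**
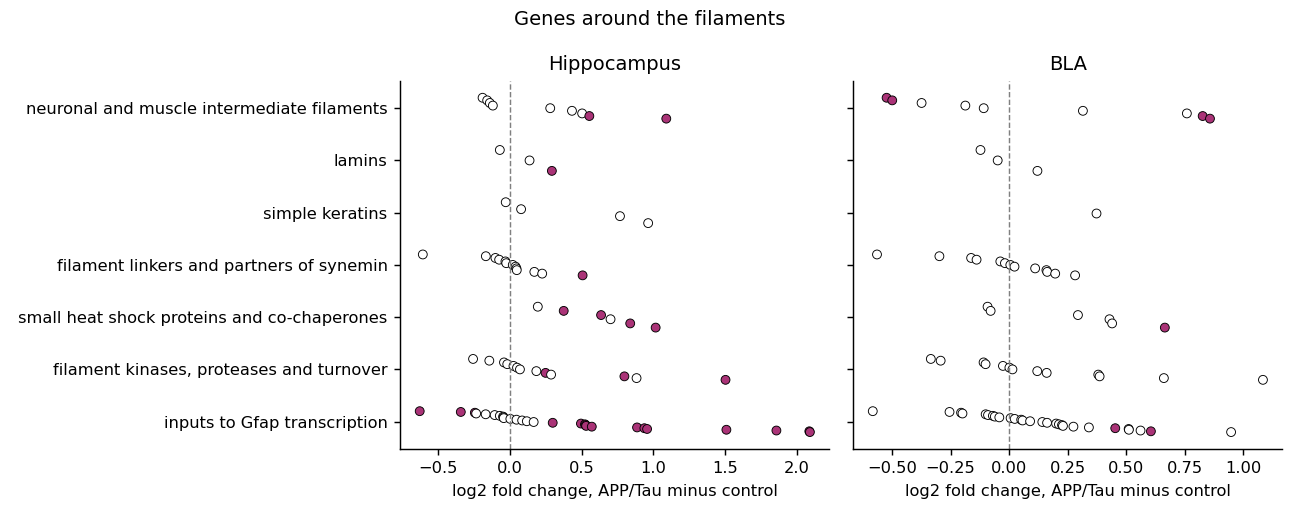
Log2 fold changes (APP/Tau minus control) of every tested gene in the 7 lists around the filaments, in the hippocampus (left) and the BLA (right), with filled points for an adjusted p under 0.05. The axes differ between the panels. In the hippocampus 13 of 28 inputs to Gfap are filled above 0 and 3 below, and 4 of 6 small heat shock proteins and co-chaperones are filled above 0.

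Over all genes tested, the median log2 fold change was -0.00 in the hippocampus and 0.01 in the BLA. Beside it, the median of the small heat shock proteins in the hippocampus was 0.67, that of the 4 tested keratins 0.42, of the neuronal and muscle filaments 0.28, of the inputs to Gfap 0.14 and of the linkers 0.02. In the BLA the small heat shock proteins were at 0.36, the neuronal and muscle filaments at -0.11 and the inputs to Gfap at 0.12.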

How the data were processed

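For each tissue the authors deposited 1 table of whole-number gene counts. Per the submitters' processing notes, reads were trimmed with Trimmomatic 0.39 and the build was mm39. Neither aligner, nor counting tool, nor use of strand was given in the sources used here. No label names the mouse behind a library, so p-values measure the spread between libraries.

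In R 4.3.3, edgeR 4.0.16 (quasi-likelihood test, TMM factors, filterByExpr with a minimum count of 10 and a minimum total of 15) was fitted to the 4 groups of a tissue or to all 8 groups, with Benjamini-Hochberg adjustment over all genes and a threshold of 0.05. Spread was tested with limma 3.58.1 on log2 CPM (prior count 2). DESeq2 1.42.0 and limma-voom were alternatives. The edgeR fits were run on simulated counts with the same dispersion for every gene and group, and the spread fits on simulated normal values. Levels whose spread differs between genotypes, as for Gfap here, were not simulated for the edgeR fits. CPM per kb uses GENCODE exon lengths of build GRCm38.

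Named by rule were the 4 genes, from each list up to 3, 2 and 2 genes with the smallest p in the hippocampus, BLA and region comparisons, and the 4 genes most like each member. Other genes were named after their values were seen. The members and lists were chosen with earlier results of these data known. One gene that this rule names is not reported here.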

Additional observations from a re-analysis of the deposited data

Results flagged for a closer look

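Of 32 groups of values, 4 genes in 8 groups, 3 had a library far from the others by Dixon's criterion, where chance gives about 1 in 20. Gfap in hippocampal APP/Tau naive replicate 5 was at 4886 CPM, and the other 4 libraries of its group were between 895 and 1592 CPM. Vim in the same library was at 279 CPM against 38.7 to 66.0 CPM. The library of the same number in the BLA, APP/Tau naive replicate 5, also held the highest Gfap of its group, at 670 CPM. Without the hippocampal library the genotype effect was 2.14 ± 0.23 for Gfap and 1.63 ± 0.28 for Vim on the log2 scale (edgeR adjusted p = 1.79e-05 and 0.00147).

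Synm in BLA control trained replicate 5 was at 62.9 CPM, and the other 4 libraries of its group were between 26.9 and 35.0 CPM. That library also had the lowest sum of striatal and central amygdala neuron markers in the BLA, 329.2 CPM, and a fibroblast marker sum of 33.8 CPM, the highest of the BLA controls. The part of these in its Synm level was not tested. None of 12 interaction tests on the 4 genes passed.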

How the results depend on the processing

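Of the comparisons' values under other settings, fits without 1 library aside, 343 kept direction and side of the threshold, 24 counts moved by over 1.5 times, 20 values lost and 6 gained a call and 23 changed sign. The 6 include the single-gene permutations of spread for hippocampal Gfap and Nes and BLA Vim. Their p was not adjusted over genes, so these are not calls at the stated threshold. The hippocampal rises of Gfap and Vim lost their calls in naive mice alone (2.22 and 1.55 log2, edgeR adjusted p = 0.077 and 0.159). Both kept their calls in trained mice alone. Where a result changed, the cause was not tested. The labels allow no check of strand, so RNA of overlapping or antisense genes cannot be told apart from that of the 4 genes. Nes in the BLA, at 4.83 to 9.11 CPM, was the lowest of them.

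For hippocampal genotype, Nes was not called with limma-voom (0.36), without a filter (0.38) or without the libraries rich in 18S rRNA (0.37), and was -0.027 in naive mice. In trained mice Lmnb2 was at 0.040 and Krt80 at -0.012. Genes called were 4335 with DESeq2, 21 in naive mice, 570 in trained mice and 1803 without the libraries rich in 18S rRNA. DESeq2 called 3 genes for training and 3 for the interaction. In controls alone the training effect was -0.065 for Gfap, -0.11 for Vim and -0.21 for Nes.

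For BLA genotype, Vim was called with DESeq2 (0.56). Gfap was not called with limma-voom (2.42), in naive mice (2.27), in trained mice (3.98) or with the striatal covariate (2.98), with edgeR adjusted p of 0.0946, 0.375 and 0.0979 in the last 3. Nes was at 0.0010 with limma-voom, 0.0054 among genes of at least 1 CPM and 0.22 in trained mice. Synm was at 0.18 in trained mice and 0.16 with the covariate, where Lmna was at 0.033. Genes called were 1191 with DESeq2, 64 with limma-voom, 27 in naive mice, 6 in trained mice and 20 with the covariate. DESeq2 called 4 genes for training, and in controls alone the training effect was -0.012 for Gfap and -0.082 for Nes.

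For the region by genotype interaction, genes called were 41 with DESeq2, 4 with limma-voom, 1 in naive and 0 in trained mice. Synm there was at -0.24 in naive mice and -0.024 without the libraries rich in 18S rRNA. The region difference of Nes was called with control libraries alone (-0.23). The covariate, the control libraries alone and the omission of libraries rich in 18S rRNA were chosen after seeing the data.

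For spread, deviations from the median gave 0.99 for hippocampal Vim and 1.13 for BLA Gfap, with 1 gene called in each tissue. Without the libraries rich in 18S rRNA hippocampal Vim was at 1.06, Synm at 0.0041, and 67 genes were called. A prior count of 0.5 gave 35 calls in the BLA. Exact permutation of a single gene's deviations, not adjusted over genes, gave p under 0.05 for hippocampal Gfap (0.77) and Nes (0.17) and BLA Vim (0.28), which limma had not called.

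Without the 2 libraries farthest from the median, the APP/Tau relations that had passed lost their calls, at r of 0.713 for Gfap with Vim and 0.316 for Gfap with Nes in the BLA, 0.835 for Gfap and 0.818 for Nes across tissues. Gfap with Nes in the BLA also lost it with group means removed (0.748). In controls r then changed sign for Gfap with Nes (-0.636 in the hippocampus, 0.0665 in the BLA, and -0.0414 in the hippocampus with group means removed), for Gfap with Synm in the hippocampus (-0.282), and across tissues for Gfap (-0.255) and Vim (0.330). Clusters were first looked for in 1 measure of a relation, and looking in both was chosen after seeing the data.

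Leaving out 1 library gave 0.30 to 0.48 for hippocampal Nes, -0.098 to 0.20 for hippocampal Krt80, -0.066 to 0.038, -0.17 to 0.10 and 0.42 to 0.69 for BLA Nes, Synm and Vim, and -0.13 to 0.14 for the interaction of Synm with region. Genes called ranged from 1171 to 4465 for hippocampal genotype, 45 to 2176 for BLA genotype, 0 to 1 for BLA training and 2 to 25 for the interaction with region. Spread ranged from 0.55 to 0.93 for Gfap, 0.76 to 1.18 for Vim and -0.023 to 0.010 for Synm in the hippocampus (6 to 1438 genes called), and from 0.91 to 1.28 for Gfap, -0.072 to 0.0084 for Nes and -0.044 to 0.12 for Synm in the BLA (0 to 42 genes called).

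Same-numbered titles did not pair libraries, with a mean correlation of deviations of 0.03 in the hippocampus (-0.10 to 0.21) and -0.02 in the BLA (-0.38 to 0.41). With the title number as a replicate block, hippocampal Nes was at 0.35 (edgeR adjusted p = 0.0726), BLA Synm at 0.013 and 44 genes were called in the BLA. Spread calls of hippocampal Vim (0.38) and BLA Gfap (0.90) ended under this block, hippocampal Gfap was at 0.39 and 3 hippocampal genes were called. It was 0.058 for Nes and -0.017 for Synm in the BLA (2 genes called). Library numbers shared by both tissues gave a mean correlation of 0.18 over 19 pairs, the lowest 0.0732, and 17 of 19 correlated best with their own number, a hint from the data and not from the design. With the library number as a block the region difference of Nes was called (-0.26, edgeR adjusted p = 0.0078), and the interaction of region with genotype gave 30 calls.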
